A study of Rattus norvegicus with 110 samples.

Results

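Liver RNA of the F2 males killed on the first of 4 necropsy dates was compared with that of the males killed on the last. Neighbouring dates lay 7 days apart, so date 4 fell 21 days after date 1. The males were chosen by the necropsy date that the study's methods give for each animal number, which put 24 liver libraries on date 1 and 24 on date 4. These 48 libraries were part of 83 liver libraries and of 110 libraries in the series. Each of the 12 groups gave 2 males to each of both dates, so dose and the treatment of sires and grandsires were balanced between both sets. The question was how far livers differ within a group by when they were collected.

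All males were Sprague Dawley rats of the F2 generation, dosed by oral gavage with 0.5 mL/kg, 3 times per week, over 39 days, then fasted overnight and killed about a day after the last dose. The vehicle groups 11, 14, 17 and 20 received only olive oil. Carbon tetrachloride (CCl4), which damages hepatocytes and leads to fibrosis, was given at 8% in groups 12, 15, 18 and 21 and at 50% in groups 13, 16, 19 and 22, diluted in the same oil. Cohort A (groups 11 to 13) descended from sires and grandsires given olive oil. Cohort B (groups 14 to 16) had a CCl4-treated F1 sire, cohort C (groups 17 to 19) a CCl4-treated F0 grandsire and cohort D (groups 20 to 22) both. Treatment started on staggered days, and every male had the same length of dosing. As reasons for the staggering the paper names the large number of F2 males and the avoidance of bias in treatment or collection.

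Every litter was killed on a single date. Date 1 held 8 litters from 7 F0 sires and date 4 held 10 litters from 6 F0 sires, and 0 litters and 0 F0 sires were on both. A litter gave 1 to 4 males. Necropsy date, litter, F0 sire and week of treatment start cannot be told apart in this comparison. Age, hour of necropsy and date of RNA isolation are not given for single males in the sources used here, so their part in the result was not tested. The p-values treat males as the units unless the litter is named as a block.

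Liver gene expression moves over the day and with food and hormones. The circadian clock of activators such as Bmal1 and repressors of the Per, Cry and Nr1d families drives daily rhythms in the hepatocyte. Corticosterone, the main glucocorticoid of the rat, binds a nuclear receptor that induces genes such as Fkbp5, Tsc22d3 and Zbtb16. After a meal insulin turns on the genes of lipid synthesis, and in fasting those of fatty acid oxidation rise. These pathways were therefore described as gene lists beside the genes with the largest differences.

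Counts were estimated reads per gene. The libraries held between 33138635 and 51343589 counts on date 1 (median 39369018) and between 31738726 and 50930971 on date 4 (median 38972802.5). A gene was tested where its counts summed to over 10 in at least 1 group, which left 12122 genes with a mean normalized count over 50 and 6882 genes with a lower mean. Normalized counts are counts scaled with TMM to the median effective library size, so that they read as counts of a typical library. Gene symbols were known for 1488 of the tested genes (7.83%), those that the study had listed for an effect of F0 treatment in these same samples. A gene list therefore covers only members among them, and the named genes are not a random draw.

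On date 1, 3 libraries stood apart from the rest. After each gene was centred on its group means, the first principal component of the 1000 most variable genes held 14.6% of the variance. Group 15 replicate 2, group 17 replicate 2 and group 20 replicate 1 had PC1 scores of 47.8, 47.4 and 37.1. The other 45 libraries lay between -24.0 and 18.7. Results that rest on these 3 libraries are given with and without them.

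The dates differed in their mean score on the first component, while their scores overlapped. They ran from -18.8 to 47.8 on date 1 and from -24.0 to 3.17 on date 4. The mean PC1 score was 8.59 ± 16.9 on date 1 and -8.59 ± 7.71 on date 4 (SD, n = 24 each), and date accounted for 31% of the variance of the scores. The litter means differed by -16.2 (exact permutation test of dates over litters within cohorts, two-sided, 3600 arrangements, p = 0.00222, adjusted p = 0.00888 over 4 components). PC2 to PC4 held 6.29%, 5.79% and 4.86% of the variance, and their adjusted p-values in the same exact permutation test were 0.276, 0.956 and 0.956. Without the 3 libraries the first component held 8.04% of the variance, the litter means differed by -9.88 and the call was lost (exact permutation test, p = 0.0281, adjusted p = 0.112).

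**Figure D1:**
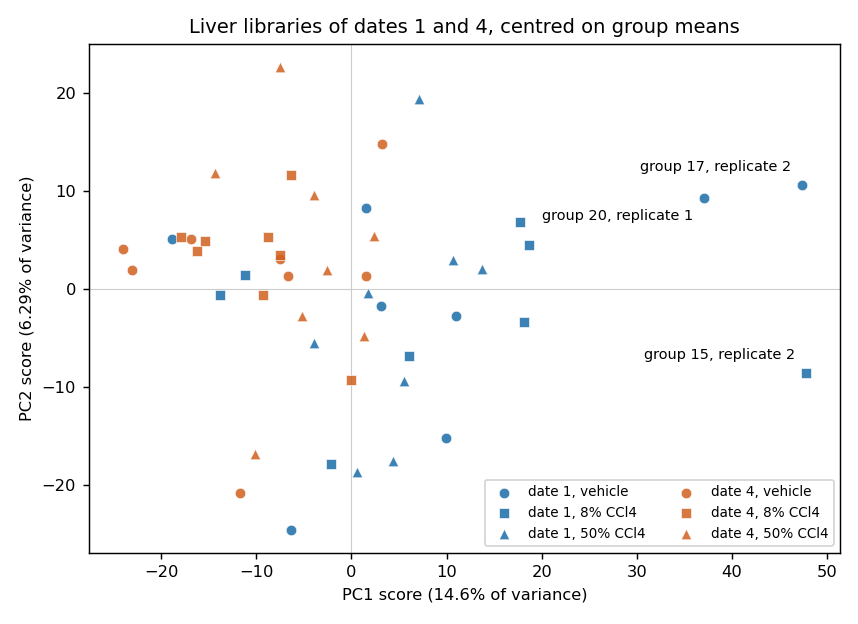
Scores of the 48 liver libraries on PC1 (x axis) and PC2 (y axis), computed from log2 CPM centred on group means, with colour for necropsy date and symbol for dose. Date 4 libraries reach a PC1 score of at most 3.17, while the 3 labelled date 1 libraries lie at 37.1 or above and the other date 1 libraries between -18.8 and 18.7.

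Of all genes tested, 654 (3.44%) differed between dates at an adjusted p under 0.1 (edgeR quasi-likelihood test with the 12 groups as a block). Of these, 185 were higher (0.973% of the genes tested) and 469 lower on date 4 (2.47%). The directions were close to even among the genes with a mean normalized count over 50, where 310 of 12122 (2.56%) were called, 154 of them higher (1.27%) and 156 lower (1.29%). Leaving out 1 library moved the count of 310 to 197 without group 14 replicate 9 and to 587 without group 18 replicate 8. The differences of the 310 genes were small. The median size was 0.29 on the log2 scale, 253 of the 310 (81.6%) differed by less than 0.5 and 12 by more than 1. The median difference of all tested genes was -0.0065. The libraries of the dates overlapped in every gene, and the litter means of the dates did not overlap for 28 genes (0.147%), 23 of them called.

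Most of the large decreases were in genes near the limit of detection. Of 301 called genes that were lower by more than 1 on the log2 scale, 298 had a mean normalized count of 50 or less, and the median of their means was 1.94. Group 17 replicate 2 had the highest value of 235 of the 301 (78.1%, against 4.13% of all tested genes), group 15 replicate 2 of 38 and group 20 replicate 1 of 17. These genes of low level were summed in each library, as a description of values the test had picked. The sum was 17630 normalized counts in the highest date 1 library and at most 1939 in the other 45 libraries. Without group 17 replicate 2 the comparison called 483 genes, 254 of them with a mean over 50. Without all 3 libraries it called 201 (1.06%), 111 of them with a mean over 50, of which 103 were among the 310.

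The number of calls also depended on the unit of the test. With the litter as a correlated block (limma-voom, correlation 0.052), 175 genes (0.921%) were called, 174 of them among the 654, while limma-voom without a block called 365. The block takes this same low correlation for every gene. For a gene whose litters differ more, its p-value is too small. With 1 value per litter, limma called 124, of which 23 had a mean over 50. Of the 15 genes described below for the size of their difference, Cdkn1a, Sdc4, Epha4 and Zfp385b were called on litter means and the others were not. Called in all of the edgeR fit, the litter block fit and the fit without the 3 libraries were 133 genes (0.700%), 41 higher and 92 lower, and 69 of them had a mean over 50. Between 342 and 993 genes were called when 1 litter was left out.

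**Figure D2:**
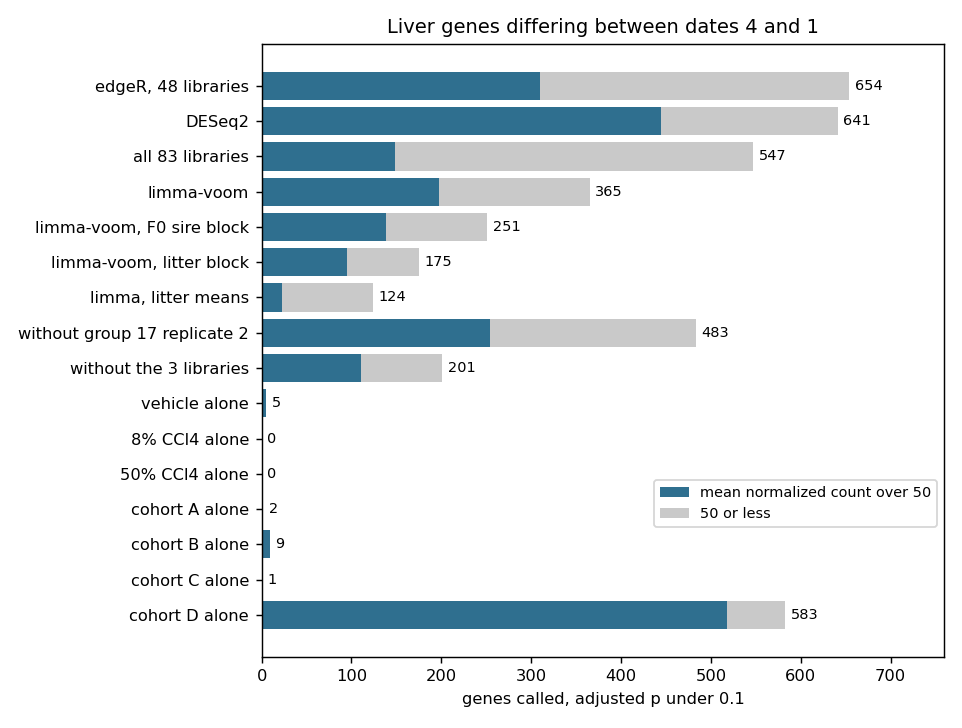
Number of liver genes called at an adjusted p under 0.1 between dates 4 and 1 (x axis) for 16 settings (y axis), split by mean normalized count over all 48 libraries. The bars run from 654 genes in the edgeR fit to 175 with the litter as a block, 201 without the 3 libraries that stand apart and 0 in the males on 8% or 50% CCl4 alone.

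Among the 1488 genes with a symbol, 76 were called (5.11%), 40 higher and 36 lower on date 4. Of these 76, 25 were also called with the litter block and without the 3 libraries, 12 of them higher and 13 lower. The 15 genes described next, 7 higher and 8 lower, were among the 8 in each direction with the largest difference, an adjusted p under 0.1, a mean normalized count over 50 and the same sign in at least 10 of the 12 groups. The rule thus favours high counts of groups with the same sign, and 0.28% of all genes with a mean over 50 had the same sign in all 12.

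Zbtb16 encodes a zinc finger transcription factor that glucocorticoids induce. Its normalized count was 27.7 to 1480 on date 1 (median 109) and 38.5 to 3090 on date 4 (median 484). Both dates spanned a wide range, and 7 of 10 date 4 litters lay above all date 1 litters. The fold change was 2.71 (log2 1.44 ± 0.31 SE, edgeR adjusted p = 0.00612, litter block 0.00567, without the 3 libraries 0.0574). With 1 value per litter the difference was 1.52 and was not called (limma adjusted p = 0.114). By cohort the log2 difference was 1.07 in A, 3.40 in B, 1.03 in C and 0.28 in D, and the date by cohort interaction missed the threshold (adjusted p = 0.107).

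Cdkn1a encodes the cyclin-dependent kinase inhibitor p21, which halts the cell cycle. It ran from 233 to 2060 on date 1 (median 974) and from 684 to 8200 on date 4 (median 1580). The litter means did not overlap, at -0.96 to -0.28 on date 1 and 0.12 to 1.22 on date 4 (log2 CPM centred on group means). The fold change was 1.92 (log2 0.94 ± 0.19 SE, edgeR adjusted p = 0.00239, litter block 0.0218, without the 3 libraries 0.0271).

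Sdc4 encodes syndecan-4, a heparan sulfate proteoglycan of the cell surface. It was among the abundant genes, at 3110 to 11900 on date 1 (median 4820) and 3620 to 24300 on date 4 (median 7770). As for Cdkn1a, all 10 date 4 litters lay above all date 1 litters. It was 1.61-fold higher (log2 0.69 ± 0.12 SE, edgeR adjusted p = 0.000794, litter block 0.00785, without the 3 libraries 0.0135).

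The other 4 higher genes were each called in fewer of these fits. Zfp354a, a zinc finger gene, rose by a log2 difference of 1.03, Tstd1, a sulfurtransferase gene, by 0.93, Ankrd33b by 0.78 and Tsc22d3 by 0.71. Zfp354a and Tstd1 had the same sign in 12 of 12 groups. The median of Zfp354a was 489 on date 1 and 1930 on date 4 in vehicle males, 438 and 654 in males on 8% CCl4 and 290 and 306 in males on 50% CCl4 (8 males each), and the date by dose interaction was not called for it (edgeR adjusted p = 1). Zfp354a was called with the litter block (adjusted p = 0.0614) but not without the 3 libraries (0.123), where its difference was 0.97. Tstd1 and Ankrd33b were called without the 3 libraries (0.0560 and 0.0918) but not with the litter block (0.113 and 0.107), where their differences were 0.85 and 0.74. Of the 7 higher genes described, 6 had their highest date 4 value in group 14 replicate 9, a vehicle male, and without this library all 7 still passed (adjusted p from 0.000652 for Sdc4 to 0.0957 for Tsc22d3).

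Epha4, an ephrin receptor tyrosine kinase gene, had the largest decrease among the genes named by the rule. Its normalized count was 33.4 to 469 on date 1 (median 78.5) and 9.48 to 96.8 on date 4 (median 32.4). All 10 date 4 litters lay below all date 1 litters, and the sign was the same in 12 of 12 groups. The level on date 1 was 2.68 times that on date 4 (log2 -1.42 ± 0.20 SE, edgeR adjusted p = 0.000278, litter block 0.00542, without the 3 libraries 0.00301). The difference was -1.91 ± 0.30 in vehicle males, -1.85 ± 0.28 on 8% CCl4 and -0.59 ± 0.29 on 50% CCl4 (log2, SE). The date by dose interaction of Epha4 had an unadjusted p = 0.00427 and an edgeR adjusted p = 1.

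Zfp385b, a zinc finger gene, was the other lower gene with a symbol whose litter means did not overlap. It ran from 338 to 882 on date 1 (median 675) and from 282 to 924 on date 4 (median 463). The difference was even across doses, at -0.43 in vehicle males, -0.41 on 8% and -0.48 on 50% CCl4, and -0.44 ± 0.08 (SE) over all (edgeR adjusted p = 0.00115, litter block 0.0110, without the 3 libraries 0.00923).

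Of the 6 other lower genes, Flrt3, a gene of cell adhesion, fell by 0.52 on the log2 scale, Mecom, a transcription factor gene, by 0.42 and Oaf by 0.41. These 3 were also called with the litter block and without the 3 libraries. Osgin1, an oxidative stress response gene at a mean of 10600 normalized counts, fell by 0.54, Fat4, a protocadherin gene, by 0.41 and Plekhh2 by 0.40. These last 3 were called neither with the litter block (adjusted p of 0.132, 0.203 and 0.106) nor without the 3 libraries (0.113, 0.185 and 0.132), though their differences were of like size, at -0.54, -0.43 and -0.38 with the block and -0.58, -0.41 and -0.34 without the libraries. When 1 litter was left out in turn, Osgin1 was called in 10 of 18 fits, Fat4 in 6 and Plekhh2 in 18.

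**Figure D3:**
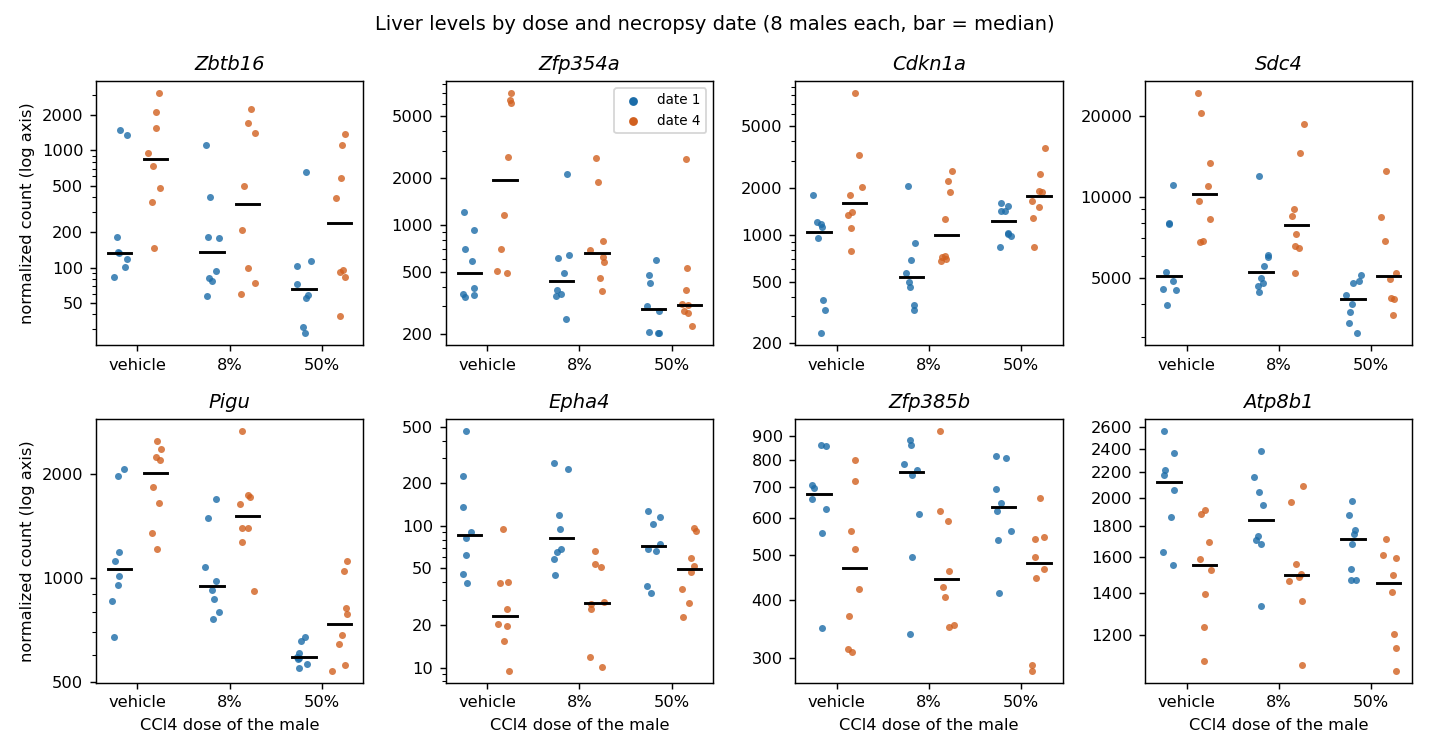
Normalized count (log y axis) of 8 genes in each of the 48 livers by dose (x axis) and necropsy date (colour), with a bar at the median of 8 males. The median is higher on date 4 at each dose for Zbtb16, Zfp354a, Cdkn1a, Sdc4 and Pigu and lower at each dose for Epha4, Zfp385b and Atp8b1, and single males of the dates overlap for all 8 genes.

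Some genes with smaller differences that were called in all 3 fits were chosen after their values were seen. Pigu, a gene of the enzyme that attaches proteins to their lipid anchor, was 1.45-fold higher (log2 0.53 ± 0.09 SE, edgeR adjusted p = 0.000378, litter block 0.00546), with the same sign in 12 of 12 groups. Mknk2, a kinase gene acting on a translation initiation factor, was 1.47-fold higher (adjusted p = 0.00336). Atp8b1, which encodes a phospholipid flippase of the bile canaliculus, was at 1330 to 2570 on date 1 (median 1820) and at 1050 to 2090 on date 4 (median 1500), a fall by 0.31 on the log2 scale in 12 of 12 groups (adjusted p = 0.00311). Itga5, a fibronectin receptor subunit, fell by 0.34 in 12 of 12 groups (adjusted p = 0.00925). The homeobox genes Meis2 and Pbx2 fell by 0.35 and 0.23 (adjusted p of 0.00261 and 0.0100). All 6 were chosen for calls with the litter block and without the 3 libraries, so those calls were fixed by the choice. Meis2 had the same sign in 11 of 12 groups, and Mknk2 and Pbx2 in 9. On litter means Pigu and Mknk2 were called (limma adjusted p of 0.0694 and 0.0598). Atp8b1, Itga5, Meis2 and Pbx2 were not (0.17, 0.159, 0.137 and 0.219).

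Of genes without a symbol, ENSRNOG00000008046.3 fell in 12 of 12 groups by 0.90 on the log2 scale (adjusted p = 0.00036, litter block 0.00565), with litter means that did not overlap. ENSRNOG00000023664.8 fell by 0.84 (adjusted p = 0.0949), was not called with the litter block (difference -0.79, adjusted p = 0.162) and was called in 5 of 18 fits without 1 litter. ENSRNOG00000003244.2 and ENSRNOG00000054181.1 rose by 1.28 and 1.27 (adjusted p of 0.0437 and 0.0472), and neither was called without the 3 libraries (0.188 and 0.162), where they differed by 1.14 and 1.15. With the litter block ENSRNOG00000003244.2 was not called (difference 1.14, adjusted p = 0.154). ENSRNOG00000054181.1 was (1.46, 0.0642).

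The glucocorticoid-induced genes that were called were higher on date 4. Of the 17 genes on the list 8 had a symbol and were tested, 4 were called higher (Zbtb16, Cdkn1a, Tsc22d3 and Fkbp5) and 0 lower. This stands beside 3.44% called of all tested genes and 5.11% of those with a symbol. The median difference was 0.52 on the log2 scale, and -0.0065 over all tested genes. Zbtb16, Cdkn1a and Tsc22d3 were already named above for the size of their difference. The list was chosen with earlier results of these data known, so its count is no independent support. Fkbp5, a chaperone of the glucocorticoid receptor, was at 676 to 2820 on date 1 (median 1300) and 791 to 6300 on date 4 (median 1670), with a log2 difference of 0.51 ± 0.15 SE (edgeR adjusted p = 0.0676). Tsc22d3, which encodes a leucine zipper protein of the glucocorticoid response, was at 318 to 1590 (median 627) and 490 to 3230 (median 992), with a difference of 0.71 ± 0.21 (adjusted p = 0.0690). The dates overlapped for both genes, in males and in litters.

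Lpin1, Klf9 and Acer2 were not called, with log2 differences of 0.53, 0.31 and 0.29 (adjusted p of 0.124, 0.177 and 0.129). Tat, which encodes a glucocorticoid-induced enzyme of tyrosine breakdown, had a difference of -0.19 (adjusted p = 0.641). Of the 8 genes, 7 had their highest date 4 value in group 14 replicate 9. Without it Zbtb16, Cdkn1a and Tsc22d3 were called (adjusted p of 0.00613, 0.00151 and 0.0957) and Fkbp5 was not (difference 0.41, adjusted p = 0.115), nor was Fkbp5 without group 17 replicate 2 (0.110). With the litter block Zbtb16, Cdkn1a and Tsc22d3 were called, and without the 3 libraries that stand apart Zbtb16 and Cdkn1a. Fkbp5 had a difference of 0.45 with the block (limma-voom adjusted p = 0.185) and of 0.48 without the 3 libraries (edgeR adjusted p = 0.196). Tsc22d3 had one of 0.68 without the 3 libraries (edgeR adjusted p = 0.185). These calls were thus lost at differences of like size. When 1 of the 18 litters was left out in turn, Zbtb16 and Cdkn1a were called in all 18 fits, Fkbp5 in 10 and Tsc22d3 in 9.

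Of 21 clock genes on 3 lists 10 had a symbol and were tested, and 1 was called, beside 3.44% of all tested genes and 5.11% of those with a symbol. So few genes tested give no reading of the lists as a whole. The repressor gene Cry2 was at 664 to 2030 on date 1 (median 1180) and 668 to 1760 on date 4 (median 983), a fall by 0.25 on the log2 scale (edgeR adjusted p = 0.0857) that was not called with the litter block (difference -0.26, adjusted p = 0.158) or without the 3 libraries (-0.25, 0.187), and that was called in 6 of the 18 fits without 1 litter. The activator gene Arntl (Bmal1) had a difference of 0.03 ± 0.12, and its repressor Nr1d1 one of -0.02 ± 0.28 (SE). Per1 had a difference of 0.58 ± 0.32, Usp2 of 0.60 ± 0.25 and Dbp of -0.38 ± 0.29, with adjusted p of 0.412, 0.236 and 0.584. The ranges within a date were wide for these genes, such as 120 to 5690 for Nr1d1 and 74.0 to 3570 for Dbp on date 1.

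The remaining lists held few genes with a symbol. Of 41 ribosome biogenesis genes 31 were tested and 0 were called, beside 5.11% of all genes with a symbol, with a median difference of -0.07 and a range from -0.15 to 0.08. The study had listed these genes for an effect of F0 treatment. On 22 other pathway lists (metabolism, inflammation, stress and cell cycle) 29 of 325 members reported here were tested and 1 was called, Osgin1 on the NRF2 list. This stands beside 3.44% of all tested genes and 5.11% of those with a symbol, and 1 call gives no reading. Gpx2, the other NRF2 gene tested, had a difference of -1.01 ± 0.35 (adjusted p = 0.138). Srebf1, a regulator of lipogenesis, had medians of 7940 and 7190 (difference 0.03 ± 0.15, adjusted p = 0.959).

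On 14 lists of markers of the liver's cell types 11 of 97 members had a symbol and were tested. Of these 0 were called (edgeR), and beside 3.44% of all tested genes and 5.11% of those with a symbol a list of this size gives no reading. The summed normalized counts of the macrophage genes Cd163, Cd5l and C1qb were 5090 to 11800 on date 1 and 5580 to 12200 on date 4. The pericentral gene Glul, the glutamine synthetase gene, had medians of 10400 and 9390 and a log2 difference within groups of 0.05 ± 0.08 (SE, edgeR adjusted p = 0.857). The endothelial gene Kdr had medians of 3430 and 3080 and a difference of -0.12 ± 0.09 (adjusted p = 0.601). On 8 of the lists, the general hepatocyte, stellate cell and neutrophil lists among them, 0 members had a symbol, so these cell types were not analysed here. In bulk RNA, fewer cells of a type and less RNA per cell cannot be told apart.

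The direction of the date difference was compared between the 3 doses. Of the 310 called genes with a mean over 50, 153 of the 154 higher genes were higher in each dose taken alone, and all 156 lower genes were lower in each, beside 49.8% of all genes with a mean over 50 that had the same sign in each dose as over all doses. The call over all doses favours such a count. The date by dose interaction called 0 genes (0.00%), with 314 at an unadjusted p under 0.05, and DESeq2 called 0. These 314 genes are fewer than chance alone would put under 0.05, so the test was conservative. Most litters gave males to several doses, and the edgeR fit did not pair the males of a litter. With the litter as a correlated block limma-voom also called 0. The lack of calls therefore does not show that the date difference was even across doses. Taken alone with 8 against 8 males, the vehicle groups called 5 genes, the 8% groups 0 (1044 at an unadjusted p under 0.05) and the 50% groups 0 (718).

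**Figure D4:**
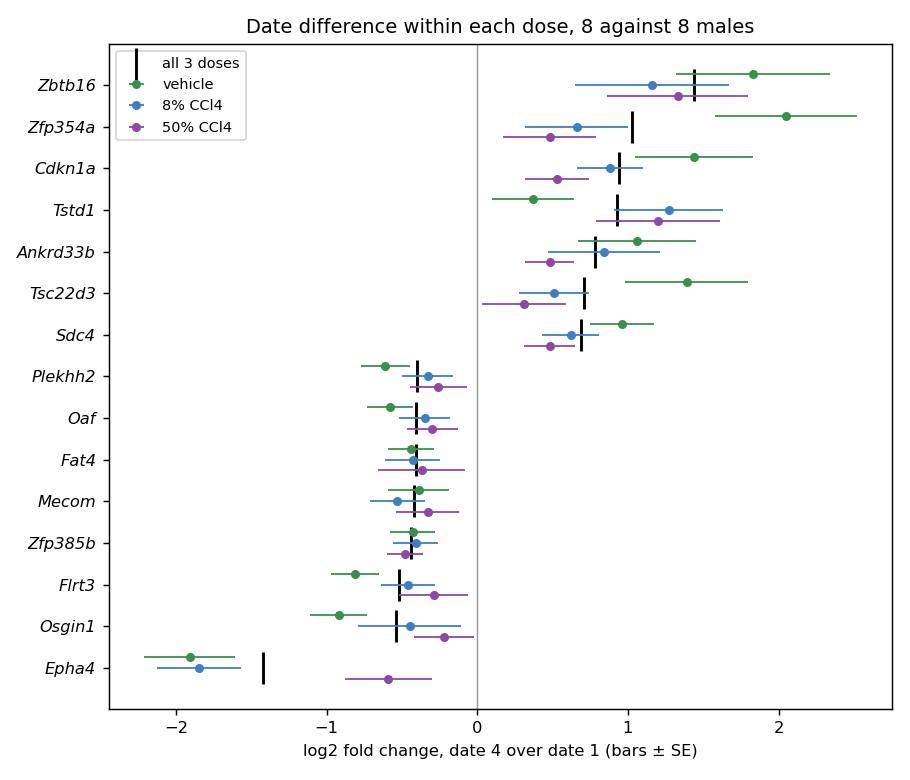
Log2 fold change of date 4 over date 1 (x axis, bars ± SE) of the 15 named genes (y axis) in vehicle males, males on 8% CCl4 and males on 50% CCl4, 8 against 8 each, with a black tick for all doses together. The sign is the same at the 3 doses for each gene, from -1.91 for Epha4 in vehicle males to 2.05 for Zfp354a in vehicle males.

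The number of genes whose date difference depended on the cohort changed with the test. The date by cohort interaction called 61 genes (0.321%) with edgeR and 814 with the DESeq2 likelihood ratio test. Of the 61, 54 had a mean over 50 and 0 were among the 654. Taken alone, cohort D called 583 genes, and cohorts A, B and C called 2, 9 and 1. Each cohort had 2 litters on date 1 and 2 or 3 on date 4, so a cohort's date difference is also a difference between single litters. Of the 310 genes, 254 (81.9%) had the same sign in all 4 cohorts as over all males, which the call over all cohorts favours, beside 14.9% of all genes with a mean over 50.

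The dates in between were compared next. The males of dates 2 and 3, 23 and 12 in number, came from other litters, and between them 0 genes were called (0.00%, edgeR, 961 at an unadjusted p under 0.05), while DESeq2 called 31. Of the 310 genes, 42 (13.5%) had the same sign from date 2 to date 3 as from date 1 to date 4, beside 31.6% of all genes with a mean over 50. Zbtb16 differed by -1.82 ± 0.38 between dates 2 and 3 and Acer2 by -0.60 ± 0.12 (SE, edgeR adjusted p = 0.317 each), opposite in sign to their differences between dates 1 and 4.

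In a fit of all 83 livers, the level on dates 2, 3 and 4 was set against the same date 1 males, so the values share their reference. Zbtb16 was at 1.99, 0.13 and 1.42 above date 1 on the log2 scale, and Sdc4 at 0.76, 0.02 and 0.69. Epha4 was at -1.20, -0.01 and -1.48. For these 3 genes date 3 lay near date 1 and date 2 near date 4. Cdkn1a was at 1.16, 0.70 and 0.92 and Tstd1 at 0.76, 0.80 and 1.02, so that for these 2 genes date 1 was the lowest of the 4 dates. Both were named for a low level on date 1 against date 4, which favours this order.

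**Figure D5:**
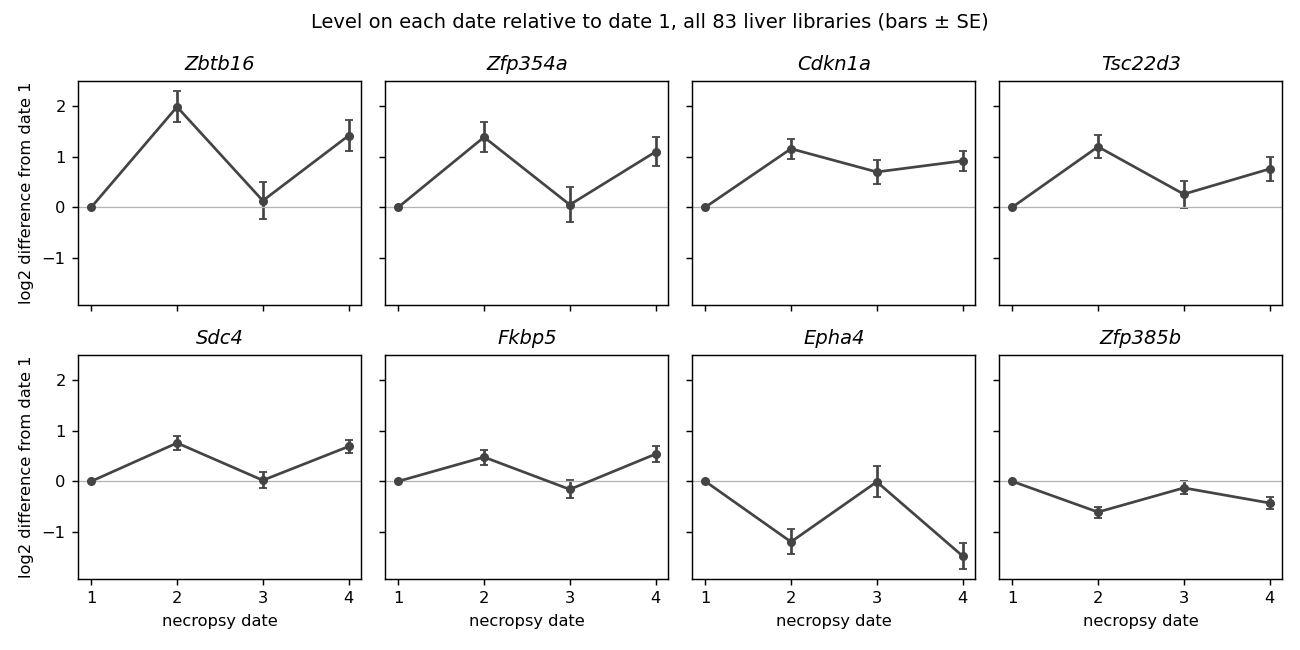
Log2 difference from date 1 (y axis, bars ± SE) on each necropsy date (x axis) for 8 genes, from a fit of all 83 liver libraries with the 12 groups as a block. Date 1 is set to 0, Zbtb16, Sdc4 and Epha4 return to near 0 on date 3, and Cdkn1a is at 0.70 or above on dates 2 to 4.

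Kidneys of 16 of the vehicle males were compared in the same way, 8 on each date. The test called 0 of 18374 genes (0.00%, edgeR, 749 at an unadjusted p under 0.05), and DESeq2 called 41. Of the 310 liver genes 302 were tested in kidney, and 184 of these (60.9%) had the same sign, beside 49.8% of all genes with a liver mean over 50. Zbtb16 had a kidney difference of 2.28 ± 0.53 (log2, SE, adjusted p = 0.602), Tsc22d3 of 0.63 ± 0.27 and Fkbp5 of 0.61 ± 0.22 (adjusted p = 1 each). The other genes on the glucocorticoid list were Klf9 at 0.46 ± 0.14 (adjusted p = 0.985), Cdkn1a at 0.29 ± 0.41, Acer2 at 0.05 ± 0.10, Lpin1 at -0.04 ± 0.17 and Tat at -0.51 ± 0.52 (adjusted p = 1 each). Sdc4 had one of 0.14 ± 0.10 and Epha4 of -0.39 ± 0.16 (adjusted p = 1 each).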

How the data were processed

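Stranded mRNA libraries of liver and kidney were sequenced by the authors, who estimated transcript abundance with Salmon 0.14.0 (submitters' processing notes) with the Ensembl rat transcripts as reference and used tximport in R 3.5.0 to sum transcripts into genes. The deposited values are estimated counts per gene, rounded to whole numbers and not normalized. The deposited average transcript lengths per gene and sample, of another unit, served as offsets in 1 alternative. All library columns were matched to the labels, and 0 were left over.

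Groups came from the labels, and necropsy dates, litters and sires from the study's supplementary methods. Counts were scaled with TMM and tested with edgeR 4.0.16 in R 4.3.3 with Benjamini-Hochberg adjustment. limma 3.58.1 and DESeq2 1.42.0 gave alternatives. The fits were tested on simulated data. Principal components used log2 CPM with a prior count of 2. Nothing in the labels states separate extractions, so p-values measure the spread between males.

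Symbols came only from the authors' list of genes with an F0 effect, whose fold changes and p-values were not used. The comparison, the lists and the rule for named genes (8 higher, 8 lower, 2 of each without a symbol, at most 4 per list and every clock or glucocorticoid gene) were chosen with earlier results of these data known. Some genes that this rule names are not reported here and are left out of the list counts. Leaving out single libraries was added after seeing the data.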

Additional observations from a re-analysis of the deposited data

Results flagged for a closer look

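Within each dose and date, a male was set against the 7 others by the gap to its nearest neighbour on the log2 scale, for the 21 named genes that were called. Of 126 such sets 9 held a male far from the others. Each set pooled 2 males of each of the 4 cohorts, and cohort and litter differences were not removed. The 1 in 20 that chance gives for 8 like males is therefore no measure for this count. For Zbtb16, group 13 replicate 1 had 649 normalized counts against at most 114 in the other date 1 males on 50% CCl4. For Zfp354a, group 12 replicate 1 had 2110 on date 1 against at most 637 on 8% CCl4, and group 13 replicate 10 had 2640 on date 4 against at most 524 on 50% CCl4. For Sdc4, group 12 replicate 1 had 11900 against at most 6090 on 8% CCl4 on date 1. For Osgin1, group 13 replicate 2 had 4280 on date 1 against at least 7630 on 50% CCl4. Group 22 replicate 9 was the highest of the date 4 males on 50% CCl4 for Oaf, at 3370 against at most 2020, and for Cry2, at 1370 against at most 900. For ENSRNOG00000054181.1, group 15 replicate 10 had 544 against at most 293 on 8% CCl4 on date 4. For ENSRNOG00000023664.8, group 20 replicate 2 had 743 against at most 249 in date 1 vehicle males.

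The date difference depended on the cohort for 61 genes in a test of the interaction itself (edgeR adjusted p under 0.1) and for 814 with the DESeq2 likelihood ratio test. Each cohort had 2 or 3 litters on a date, and cohort and litter cannot be told apart in this test.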

How the results depend on the processing

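The comparison of dates 4 and 1 called 654 genes, 310 of them with a mean normalized count over 50. Keeping only genes whose mean count passed 10 in a group gave 289 and 198, at an adjusted p under 0.05 365 and 140, with limma-voom 365 and 198, with the F0 sire as a correlated block (correlation 0.017) 251 and 138, with the litter as a block 175 and 95, and on litter means 124 and 23. All 83 livers gave 547 and 148. DESeq2 called 641 genes, 260 higher and 381 lower, and 444 of the 641 had a mean over 50. DESeq2 size factors in edgeR gave 654 and 310, length offsets 649 and 315, and no filter 586 and 241. Alone, the vehicle males gave 5 and 5, the 8% males 0 and 0, the 50% males 0 and 0, cohort A 2 and 2, cohort B 9 and 9, cohort C 1 and 1, and cohort D 583 and 518, all with fewer samples. Without the 3 libraries that stand apart the counts were 201 and 111, without group 17 replicate 2 483 and 254, and without group 14 replicate 9 498 and 197. The share of calls that were higher was 28.3% in the edgeR fit, 40.6% with DESeq2, 16.9% on litter means and 64.8% in cohort D alone.

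Leaving out 1 litter at a time gave 342 to 993 genes, and 144 to 587 with a mean over 50. The counts moved by over 1.5 times without the cohort B litter of date 4 with replicate 9 of each group (342), the cohort B litter of date 1 with replicate 2 of each group (373), the cohort D litters of date 4 (412 and 411) and of date 1 with replicate 1 of group 20 (424), and group 18 replicate 8 alone (993). With a mean over 50, they also did so without the cohort A litter of group 12 replicate 10 (184) and the cohort D litter of group 20 replicate 2 (183). The causes were not tested.

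Over the alternatives, 1 called named gene changed sign, Tsc22d3 at -0.16 in cohort C alone. Of the 21 called named genes, 12 were called with the litter block, 12 without the 3 libraries and 5 on litter means. The interaction of date and cohort called 61 genes, 96 with no filter and 814 with DESeq2. Dates 3 and 2 differed in 0 genes, in 1 with the litter block and in 31 with DESeq2. Kidney gave 0 genes, 1 with no filter, 41 with DESeq2 and 0 to 7 when a litter was left out, 7 without a cohort C litter of date 1, and its litter block could not be fitted. PC1 lost its call without the 3 libraries (adjusted p = 0.112, exact permutation test). No paired analysis was possible because males of dates 1 and 4 share no litter and no replicate number.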
